A study of Homo sapiens with 21 samples.

Results

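The transcripts of 10 liver-secreted plasma proteins were followed across 7 caffeine doses in HepG2 cells, a human liver tumour line. They were chosen by name and found by gene symbol through the Ensembl identifiers of the count table. They are ALB (albumin), AFP (alpha-fetoprotein), TF (transferrin), SERPINA1 (alpha-1-antitrypsin), AHSG (fetuin-A), RBP4 (retinol-binding protein), TTR (transthyretin), ORM1 (orosomucoid), HP (haptoglobin) and HPX (hemopexin). All 10 were found among 37637 listed features, and all 10 passed the filter on low counts, as did 17951 features in all.

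The cells were rinsed and moved from serum-containing into serum-free DMEM holding caffeine at 0.01, 0.1, 1, 10, 100 or 1000 µM, and harvested with trypsin after 24 h. Control cultures had the same serum-free medium with 0 µM caffeine, so every group shared the withdrawal of serum. Each group had 3 cultures, named as biological replicates in the study's design, and poly(dT)-purified RNA was sequenced from each, giving 21 libraries. HepG2 is 1 tumour line, so the spread between cultures is not a spread between donors or between liver samples.

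Hepatocytes make most of the proteins of blood plasma and release them through the secretory pathway. Albumin holds the colloid pressure of plasma and carries fatty acids, drugs and hormones, and its neighbour gene AFP encodes the fetal counterpart that is silenced after birth and returns in liver tumours. Both genes, like SERPINA1, are textbook targets of the hepatocyte factor HNF1, with C/EBP, FOXA and HNF4 factors acting on many plasma protein genes. Caffeine is a methylxanthine that blocks adenosine receptors and, at high concentrations, phosphodiesterases.

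ALB and AFP lie next to each other on chromosome 4, and their gene models in GENCODE 29 (GRCh38) are 9725 bases apart. ALB (ENSG00000163631.17) spans chr4:73397114-73421412 and AFP (ENSG00000081051.7) spans chr4:73431138-73456174, both on the plus strand. The 150 bases before each RefSeq start (GRCh38.p14, plus strand) are shown because these genes had the highest and the third highest number of counts per length of coding sequence here. The ALB stretch is chr4:73404137-73404286 and the AFP stretch chr4:73436071-73436220, 5′ to 3′, with capitals marking the HNF1 half-site GTTAAT read on either strand.
ALB: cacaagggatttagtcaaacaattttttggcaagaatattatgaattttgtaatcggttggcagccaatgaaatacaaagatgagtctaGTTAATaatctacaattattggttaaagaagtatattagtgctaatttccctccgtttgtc
AFP: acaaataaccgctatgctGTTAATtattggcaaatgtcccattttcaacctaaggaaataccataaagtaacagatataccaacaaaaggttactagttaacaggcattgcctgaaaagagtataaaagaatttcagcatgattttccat
The first base of the half-site lay at -61 relative to the ALB start and at -132 relative to the AFP start.

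RefSeq promoter windows, from 250 bases before to 50 after a start, were at hand for 8 of the 10 genes, all except TTR and HP. GTTAAT was present in ALB, AFP and SERPINA1, and in 6.88% of 35116 promoter windows of all genes. The C/EBP pattern TTNNGCAA was present in 6 of the 8 (ALB, AFP, TF, AHSG, HPX and RBP4) and in 10.5% of all windows. The TATA box TATAAA was found in AFP, ORM1 and RBP4 (11.5% of all windows), the HNF4 pattern CAAAGTCCA in AHSG (0.384%), the STAT3 pattern TTCNNNGAA in RBP4 (7.66%) and the CRE half-site TGACG, which is also part of the full CRE, in TF and HPX (24.6%). The FOXA pattern TGTTTAC (3.42%), the C/EBP palindrome TTGCGCAA (0.151%), which is a special case of TTNNGCAA, and the full CRE TGACGTCA (1.85%) had no match in these windows. Both strands were searched, and genes with several starts count once if any window matched.

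Library totals lay between 23502519 and 44815552 counts. The libraries fell into 3 sets by their mitochondrial mRNAs, and these sets did not follow the doses exactly. Set A (11 libraries) had every library of the control, 0.01 and 0.1 µM groups plus 1 µM replicates 1 and 2. Set B (7 libraries) had 1 µM replicate 3, the whole 10 µM group, 100 µM replicate 2 and 1000 µM replicates 1 and 2, and set C (3 libraries) had the remaining 100 µM replicates 1 and 3 and 1000 µM replicate 3. Set A libraries had 9.95% to 14.2% mitochondrial counts, set B libraries 4.71% to 4.95%, and those of set C 11.8% to 12.8%. Control was only in set A, and 100 and 1000 µM only in sets B and C. Fold changes of single genes against control were therefore also fitted with the library set as a term. In that fit set A is linked to set B by 1 µM replicate 3 alone. The labels name no batch, and what the sets are was not tested.

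Hepatic markers were present in each library, from a median of 48.3 CPM (counts of a gene relative to the scaled library total) for FGB, a fibrinogen chain, to 8520.2 CPM for APOB, the carrier protein of low-density lipoprotein. Of 10 markers of other cell types, PECAM1 and KDR were not analysed here. PTPRC, of leukocytes, and DCN, of fibroblasts, had at most 1 count in any library, and COL1A1 and COL3A1 at most 2, while LYZ (median 1020.6 CPM), CD68 (48.8) and PDGFRB (3.79) were detected. The 8 markers, with LYZ as the main part, summed to 939.8 to 1064.7 CPM in control and to 1266.5 to 1315 CPM at 10 µM. The range was 1599 to 1703 CPM at 100 µM, and 1415 to 1938 CPM was found at 1000 µM. At 1000 µM LYZ (0.82) and PDGFRB (2.50) rose and CD68 (-0.80) fell on the log2 scale by edgeR's quasi-likelihood test, with and without the library set as a term. LYZ also rose at 10 µM (0.40) and 100 µM (0.76), as did PDGFRB at 100 µM (0.73), and these calls were lost with the set term. The part of these markers in the results was not tested. A level here is a share of the RNA of a whole culture, so fewer cells with a transcript and less of it per cell cannot be told apart.

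Levels between genes were compared as CPM per kilobase of coding sequence. In control ALB stood highest at 6825 ± 1399 (SD, n = 3), followed by SERPINA1 at 5160 ± 419, AFP at 2937 ± 455, TF at 1958 ± 43.2 and AHSG at 1904 ± 274. RBP4 (769.8 ± 80.8), ORM1 (610.7 ± 22.9) and TTR (208.9 ± 15.7) were lower, and HP (9.6 ± 0.652) and HPX (0.436 ± 0.168) were the lowest of the 10. TF and AHSG did not differ beyond their spread in this order, and the SDs of ALB and SERPINA1 also overlapped. At 1000 µM ALB stood at 3467 ± 121, SERPINA1 at 2947 ± 703, AHSG at 1578 ± 236, AFP at 1115 ± 81.9 and TF at 1114 ± 45.5 CPM per kilobase (SD, n = 3). AHSG thus stood above both AFP and TF at that dose, whereas in control it was below them in mean.

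At 1000 µM most of the 10 transcripts were lower than in control. ALB, AFP, TF, SERPINA1, AHSG, RBP4 and HP fell, TTR rose, and HPX and ORM1 did not pass the test. Thus 8 of 10 passed 0.05 after adjustment in edgeR's quasi-likelihood test, where 57.6% of all features tested were called, 28.5% higher and 29.1% lower. The median log2 fold change of the 10 was -0.74, against -0.01 for all features. The count was again 8 with the library set as a term, with 38.0% of all features called, and 7 genes were called in the same direction in both fits. AHSG was called only without the set and ORM1 only with it.

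**Figure D1:**
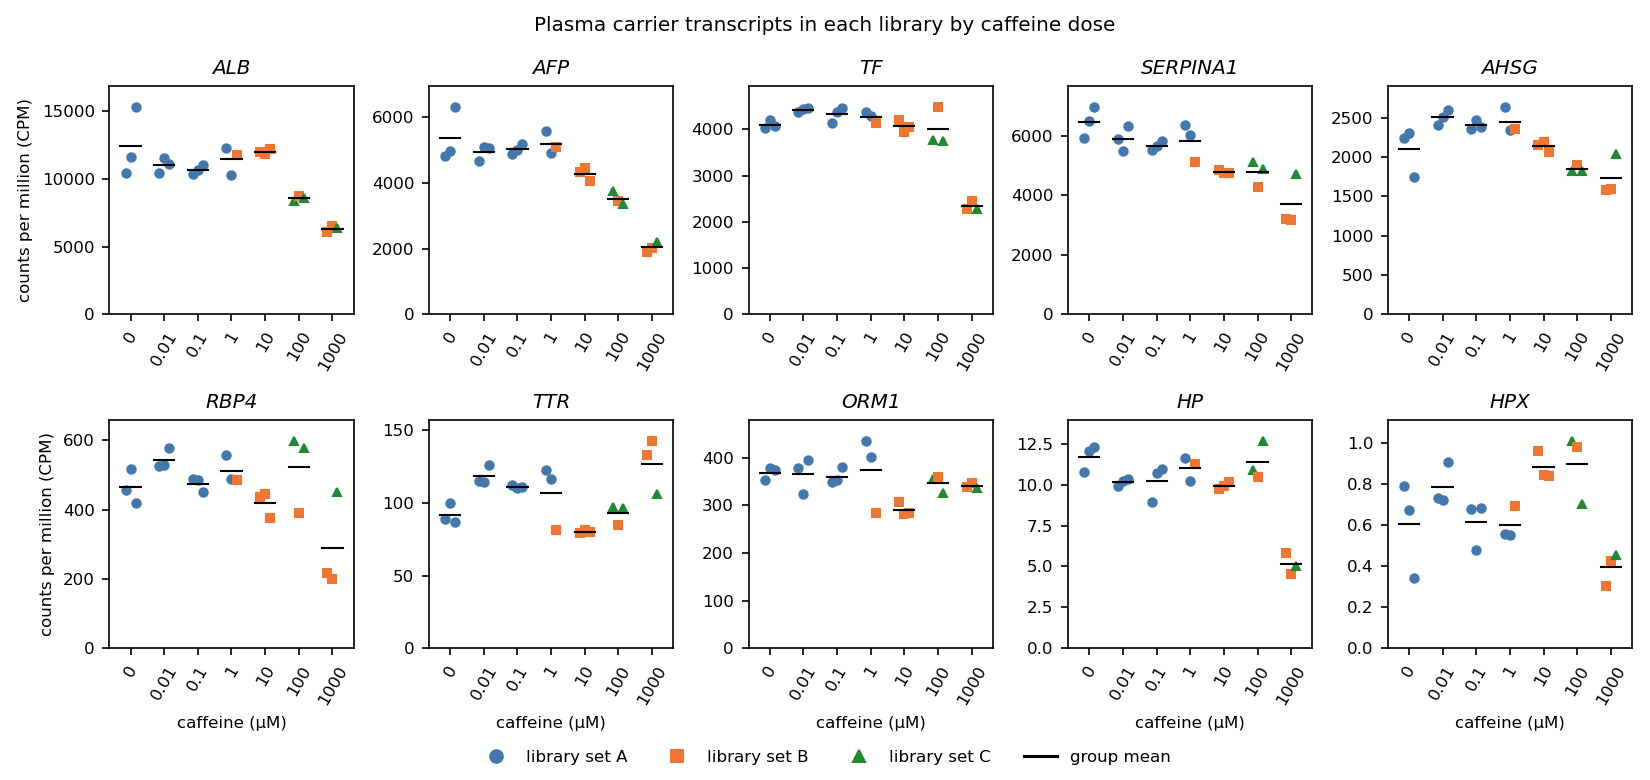
CPM (linear axis from 0) of the 10 genes in each of the 21 libraries by caffeine dose in µM, with colour and shape for library sets A, B and C and a bar for the group mean of 3. All 3 libraries at 1000 µM lie below all 3 controls for ALB, AFP, TF, SERPINA1, ORM1 and HP, and above them for TTR. ORM1 was not called at this dose, and the share of all features without overlap was not counted.

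The 10 genes together took 3.04% ± 0.243 of all counts in control (SD, n = 3). The share was 2.34% ± 0.12 at 100 µM and 1.7% ± 0.0516 at 1000 µM. From 0.01 to 10 µM the group means lay between 2.88% and 3.04%. The highest of the 100 and 1000 µM libraries thus stayed below the lowest library of the lower doses, as the plot of library shares shows.

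ALB, the most abundant of the 10 transcripts, fell at both high doses. It stood at 10448, 11618 and 15342 CPM in the 3 control libraries, at 8345, 8719 and 8612 at 100 µM, and at 6109.95, 6552 and 6339 at 1000 µM. The groups did not overlap, and control replicate 3 was far above the other 2 controls. From 0.01 to 10 µM the 12 libraries ranged from 10285 to 12315 CPM, inside the range of control save for 3 libraries just under it. The log2 fold change was -0.54 ± 0.10 (SE; adjusted p 0.000318, edgeR's quasi-likelihood test) at 100 µM and -0.98 ± 0.11 (adjusted p 1.96e-07) at 1000 µM, so 1000 µM held 50.8% of the control level. Fitted with the set term, the values were -0.59 (adjusted p 0.0456) and -1.03 (adjusted p 0.00023).

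AFP fell the most of the 10 at 1000 µM. Its levels were 4810.3, 4964 and 6320.3 CPM in control and 4328, 4443 and 4052 at 10 µM. They were 3765, 3437 and 3365 CPM at 100 µM and 1904, 2008 and 2199.6 at 1000 µM. Each of these 3 doses lay wholly below control, and 1000 µM wholly below 100 µM, while the 0.01 to 1 µM libraries (4658 to 5583 CPM) overlapped with control. The log2 fold change was -0.61 ± 0.10 (SE; adjusted p 3.94e-05, edgeR's quasi-likelihood test) at 100 µM and -1.40 ± 0.10 (adjusted p 4.5e-10) at 1000 µM, which left 38.0% of the control level. Both were called again under the set term, at -0.64 and -1.39.

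The 2 neighbour genes did not keep a fixed ratio of counts. AFP counts over ALB counts within a library were 0.46, 0.427 and 0.412 in control, 0.36, 0.374 and 0.332 at 10 µM, 0.451, 0.394 and 0.391 at 100 µM, and 0.312, 0.307 and 0.347 at 1000 µM. The ratio was below control in all libraries at 10 and at 1000 µM, and overlapped with control at 100 µM. The mean log2 ratio differed from control by -0.43 at 1000 µM (p 0.1 by a 2-sided exact permutation test of 3 against 3, the smallest p this design allows), by -0.29 at 10 µM (p 0.1) and by -0.07 at 100 µM (p 0.5). These 3 p-values were not below 0.05 and could not be, and no ratio against control can be taken within a library set, because control was only in set A.

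**Figure D2:**
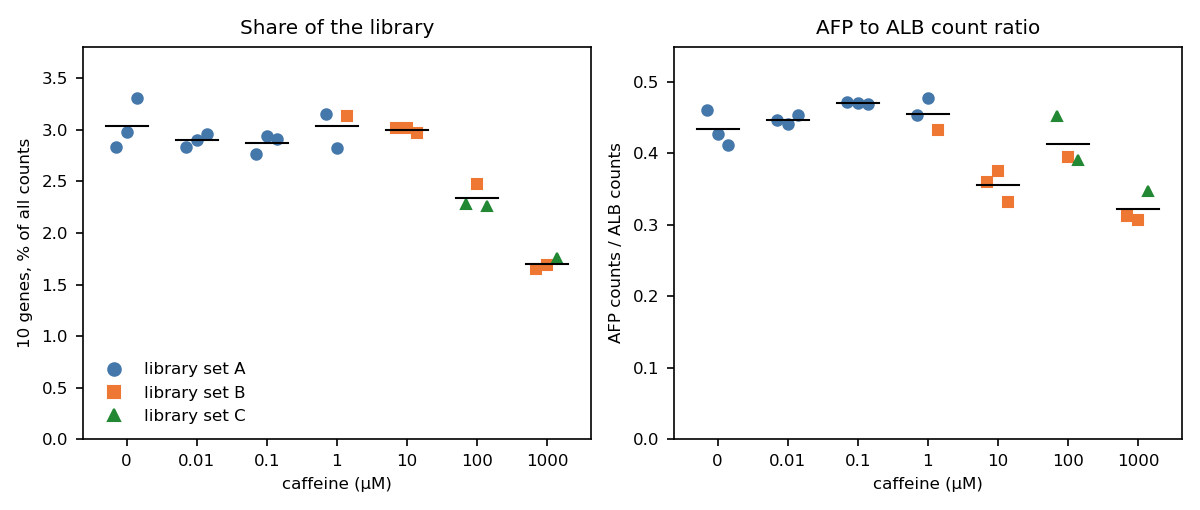
Left, the summed counts of the 10 genes as a percentage of all counts in each library; right, AFP counts divided by ALB counts, both by caffeine dose in µM, with bars for group means of 3 and colours for library sets. The share at 1000 µM has a mean of 1.7% against 3.04% in control, and the ratio at 100 µM overlaps with control.

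TF, the iron carrier of plasma, fell at 1000 µM, while at 100 µM it did not pass the test. The controls stood at 4033, 4203 and 4064 CPM and the 1000 µM libraries at 2272, 2441 and 2281, with no overlap. At 100 µM the libraries stood at 3781, 4491 and 3747 CPM, on both sides of control, the highest being the only one of set B. The log2 fold change was -0.81 ± 0.07 (SE; adjusted p 1.65e-08, edgeR's quasi-likelihood test) at 1000 µM and -0.03 ± 0.07 at 100 µM. Under the set term they were -0.70 (adjusted p 5.97e-05) and 0.13 (adjusted p 0.512).

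SERPINA1, the inhibitor of neutrophil elastase, fell at 10, 100 and 1000 µM. Levels were 5934, 6492 and 6984 CPM in control, 4839.7, 4757 and 4746 at 10 µM, 5129, 4291 and 4901 at 100 µM, and 3199, 3173 and 4712 at 1000 µM. The 3 doses lay wholly below control, and 1000 µM replicate 3, of set C, lay far above the other 2 and within the range at 100 µM. The log2 fold change was -0.44 ± 0.12 at 100 µM and -0.81 ± 0.13 at 1000 µM (SE; adjusted p 0.00739 and 1.85e-05, edgeR's quasi-likelihood test). The fit with the set term gave -0.43 (adjusted p 0.0489) and -0.69 (adjusted p 0.000683). At 10 µM the value was -0.44 and the call was lost with the set term (-0.17, adjusted p 1).

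AHSG, an inhibitor of mineral precipitation, had the smallest called fall at 1000 µM. Control replicate 3 stood at 1749 CPM, under the other 2 at 2239 and 2299, while the 1000 µM libraries were 1585 and 1590.4 in set B and 2038 in set C, so the groups overlapped. The log2 fold change was -0.27 ± 0.10 (SE; adjusted p 0.0296, edgeR's quasi-likelihood test), and the call was lost with the set term (-0.25, adjusted p 0.279). It was also lost without control replicate 1 (adjusted p 0.109) or 2 (0.144), or without 1000 µM replicate 1 (0.136) or 2 (0.133), without the filter (0.0828) and with only the groups compared (0.187), all by the same test.

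RBP4 carries retinol from the liver and travels in plasma bound to TTR, the carrier of thyroxine, and the 2 transcripts went in opposite directions at 1000 µM. RBP4 stood at 457.3, 515.9 and 419.3 CPM in control and at 216.9, 201.3 and 450.8 at 1000 µM, where the third library, of set C, lay within the control range. TTR stood at 89.4, 100.03 and 87.0 CPM in control and at 132.8, 142.8 and 105.9 at 1000 µM, all above control, with the third library again the nearest to it. RBP4 fell by 0.68 on the log2 scale (SE 0.22, adjusted p 0.0143) and TTR rose by 0.46 (SE 0.12, adjusted p 0.00328), both by edgeR's quasi-likelihood test. The values were -0.95 (adjusted p 0.000387) and 1.05 (adjusted p 5.27e-05) with the set term.

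The RBP4 call at 1000 µM was lost without control replicate 2 (adjusted p 0.0545), without 1000 µM replicate 1 (0.0778) or 2 (0.0785) and with only the groups compared (0.0938), each by edgeR's quasi-likelihood test. RBP4 counts over TTR counts, not corrected for length, were 5.12, 5.16 and 4.82 in control and 1.63, 1.41 and 4.26 at 1000 µM. In the other 15 libraries this ratio was 4.06 to 6.14. The 2 low values were the set B libraries at 1000 µM, and the set B libraries at 1, 10 and 100 µM had 4.61 to 5.96.

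TTR also differed by library set at lower doses. Replicates 1 and 2 at 1 µM, of set A, stood at 122.6 and 116.8 CPM, and replicate 3, of set B, at 81.4. The 10 µM libraries, all of set B, stood at 79.5 to 81.2 CPM, below control, and the 0.01 and 0.1 µM libraries, all of set A, at 110.2 to 126.1 CPM, above it. By edgeR's quasi-likelihood test with the set term, TTR was called higher at 0.01 µM (0.36, adjusted p 0.0354) and at 100 µM (0.63, adjusted p 0.016), while without it the 100 µM value was 0.01 (adjusted p 0.956).

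ORM1, a carrier of basic drugs and an acute-phase protein, did not pass edgeR's quasi-likelihood test at 1000 µM. Nor did it pass that test jointly over the 6 doses (adjusted p 0.0888), while DESeq2's likelihood ratio test over the doses called ORM1. It stood at 352.3, 377.4 and 374.9 CPM in control, at 355.7, 360.5 and 326.4 at 100 µM, and at 337.8, 346.3 and 336.6 at 1000 µM. The 1000 µM libraries lay just below control without overlap, with a log2 fold change of -0.11 (95% interval -0.33 to 0.11, adjusted p 0.399, edgeR's quasi-likelihood test). The sign turned with the set term, to 0.50 at 100 µM (adjusted p 0.0189) and 0.45 at 1000 µM (adjusted p 0.0122). As for TTR, the set B library at 1 µM (285.0 CPM) lay below the set A libraries (435.1 and 400.5) and near the 10 µM group (280.9 to 307.0).

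ORM1 has a near-identical copy, ORM2, which starts 3393 bases beyond it on chromosome 9, and how the authors' counting split reads between them is not given in the sources used here. ORM2 stood at 131.2 ± 18.3 CPM in control, 188.4 ± 25.5 at 100 µM and 130.3 ± 30.3 at 1000 µM (SD, n = 3). It rose at 100 µM by 0.52 on the log2 scale (adjusted p 0.00285, edgeR's quasi-likelihood test), a call that was lost with the set term (0.18, adjusted p 0.504). Summed with ORM2, ORM1 changed by 0.10 at 100 µM and by -0.09 at 1000 µM on the log2 scale, neither of which was called.

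HP and HPX capture free haemoglobin and free haem, and both were scarce here. HP stood at 10.8, 12.0 and 12.3 CPM in control, 10.9, 10.5 and 12.7 at 100 µM, and 5.82, 4.54 and 5.02 at 1000 µM, where all 3 libraries lay below all others. It fell at 1000 µM by 1.18 on the log2 scale (SE 0.11, adjusted p 3.17e-08, edgeR's quasi-likelihood test), to 44.0% of control, and by 1.25 with the set term (adjusted p 4.4e-05). HPR, its near-identical copy 2092 bases away on chromosome 16, fell by 0.75 (adjusted p 0.00565), and summed counts of HP and HPR fell by 1.04 (adjusted p 7.21e-08, same test). With the set term HPR fell by 1.05 (adjusted p 0.0163, same test), and the sum was not fitted with it.

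HPX was counted 26, 26 and 9 times in the control libraries and 12, 12 and 11 times at 1000 µM, so counting error was large. Its CPM were 0.795, 0.675 and 0.345 in control, 1.01, 0.981 and 0.706 at 100 µM, and 0.306, 0.425 and 0.456 at 1000 µM. Control replicate 3 lay among the 1000 µM libraries, and the log2 fold change of -0.65 ± 0.29 (SE) was not called (adjusted p 0.064, edgeR's quasi-likelihood test). Without that control library it was -0.91 (adjusted p 0.00752), and with the set term and all libraries -0.99 (adjusted p 0.136, same test).

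At 100 µM the 3 genes ALB, AFP and SERPINA1 fell and none of the other 7 was called, beside 46.6% of all features (23.6% higher, 22.9% lower). The median log2 fold change of the 10 was -0.06, against -0.01 for all features. With the set term the same 3 were called again, at 17.3% of all features (9.14% higher, 8.21% lower), and TTR and ORM1 were called higher. Both fits used the same controls, so the fold changes at 100 and 1000 µM share their reference.

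At 10 µM 3 of the 10 were called, all lower, namely by edgeR's quasi-likelihood test AFP (-0.33, adjusted p 0.0275), SERPINA1 (-0.44, adjusted p 0.0259) and ORM1 (-0.34, adjusted p 0.0479). Of all features 14.8% were called at this dose, 7.49% lower. Under the set term 0 of 10 were called by edgeR, beside 0.0279% of all features. At an unadjusted p of 0.05 that fit passed 1 of the 10 and 4.94% of all features. DESeq2's Wald test without the set also called 3. The AFP call was lost without control replicate 3 or any 1 of the 10 µM libraries. It was also lost without the filter and with only the groups compared. The SERPINA1 call was lost without control replicate 2 or 3 or any 1 of the 10 µM libraries. The ORM1 call was lost without any 1 of 15 libraries, without the filter and with the replicate block (adjusted p 0.0601, edgeR's quasi-likelihood test). Summed with ORM2, ORM1 stood at -0.24 and was not called. All 10 µM libraries were of set B and all controls of set A, so dose and set are separated there by 1 µM replicate 3 alone.

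At 0.01, 0.1 and 1 µM none of the 10 was called by edgeR's quasi-likelihood test, beside 0.0279%, 0% and 0.106% of all features. At an unadjusted p of 0.05, 2, 2 and 1 of the 10 passed at these doses, beside 15.0%, 9.48% and 15.7% of all features, and DESeq2's Wald test called 0 at each. Under the set term 1 of the 10 (TTR) was called at 0.01 µM, beside 3.02% of all features. None was called by that edgeR fit at 0.1 and 1 µM, beside 0.0223% and 0.629%, where 4 and 3 of the 10 had an unadjusted p under 0.05, beside 15.4% and 17.1% of all features.

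Between 1000 and 100 µM, 7 of the 10 were lower at 1000 µM and TTR was higher, beside 44.0% of all features (21.8% higher, 22.3% lower) called by edgeR's quasi-likelihood test. This comparison uses no control, and both doses hold libraries of sets B and C. The log2 differences were -1.14 for HP, -1.21 for HPX, -0.85 for RBP4, -0.79 for AFP, -0.78 for TF, -0.43 for ALB, -0.37 for SERPINA1 and 0.45 for TTR. AHSG (-0.09, 95% interval -0.29 to 0.11) and ORM1 (-0.03, -0.25 to 0.19) were not called. The same 8 genes were called in the same direction under the set term, beside 46.3% of all features. The median of the 10 was -0.61 without the set term, against 0.00 for all features. The SERPINA1 call was lost without 100 µM replicate 1 or 3 or 1000 µM replicate 1 or 2 (adjusted p 0.0593 to 0.126, same test). With only these groups in the fit the calls of SERPINA1 (adjusted p 0.132) and RBP4 (0.0888) were lost.

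**Figure D3:**
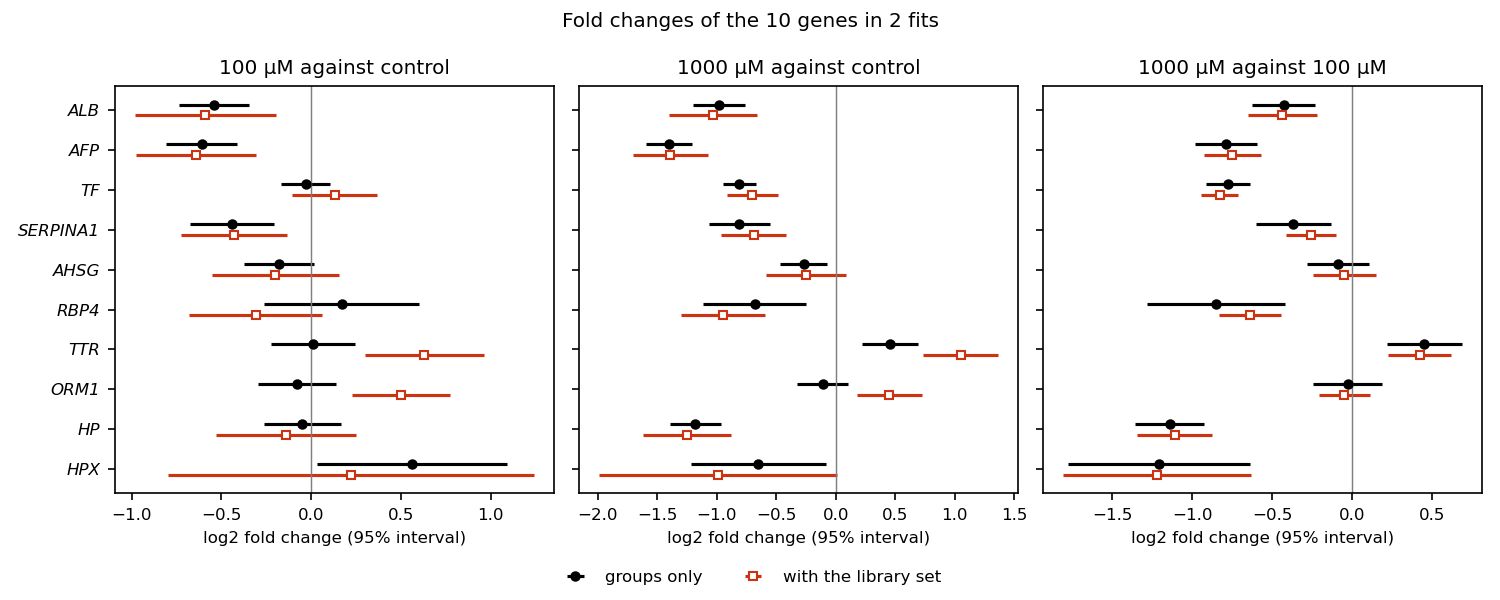
Log2 fold changes of the 10 genes with 95% intervals (linear axes, which differ between panels) at 100 µM against control, 1000 µM against control and 1000 against 100 µM, from the fit of groups only (black) and with the library set as a term (open squares). The 2 fits give near values for the 1000 against 100 µM comparison, while TTR and ORM1 lie apart against control, at 0.46 and 1.05 and at -0.11 and 0.45 at 1000 µM.

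Library sets B and C each held both high doses, so the 1000 minus 100 µM difference of log2 CPM can be set side by side within them. In set B and set C it was -0.81 and -0.69 for AFP, -0.46 and -0.42 for ALB, -0.93 and -0.72 for TF and -1.02 and -1.22 for HP. These differences were of like size in both sets. ORM1 stood at -0.08 and -0.02. The values differed more for TTR (0.70 and 0.13), RBP4 (-0.90 and -0.38), HPX (-1.30 and -0.81, at low counts), SERPINA1 (-0.43 and -0.09) and AHSG (-0.26 and 0.16). There were 3 libraries or fewer behind each value and no test.

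Set B also held 1000 and 10 µM libraries (2 against 3), which allowed a fit within 1 set. All 10 genes were called there by edgeR's quasi-likelihood test, 8 lower and 2 higher, beside 69.1% of all features tested in that fit (34.1% higher, 35.0% lower). AFP (-1.15), RBP4 (-1.02), HPX (-1.31), ALB (-0.95), HP (-0.95), TF (-0.81), SERPINA1 (-0.61) and AHSG (-0.45) were lower at 1000 than at 10 µM on the log2 scale, and TTR (0.76) and ORM1 (0.21) higher. The direction of TTR and of AFP, ALB, TF, HP, RBP4 and SERPINA1 was the same as in both fits against control at 1000 µM. In edgeR's joint test of the 6 doses 9 of the 10 were called, beside 73.6% of all features, and all 10 with the set term, beside 59.8%. DESeq2's likelihood ratio test without the set called all 10, and its share of all features was not counted.

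The other plasma protein genes listed here were more often lower than higher at 1000 µM, and SERPINA3 and ITIH3 rose. Of 35 listed genes 26 passed the filter. At 1000 µM 14 fell and 5 rose by edgeR's quasi-likelihood test, with a median of -0.54, and at 100 µM 11 fell and 4 rose (median -0.32). These were 73.1% and 57.7% of the genes tested, beside 57.6% and 46.6% of all features, which were called about equally in both directions. The fit with the set term called 19 at 1000 µM (13 lower, 6 higher) and 6 at 100 µM, or 73.1% and 23.1%, beside 38.0% and 17.3% of all features. At 1000 µM these were not all the same genes: KNG1 and CPN2 lost the call with the set term, and A1BG and AZGP1 gained it. Between 1000 and 100 µM 16 were lower and 7 higher (median -0.66), which is 88.5% of those tested, beside 44.0% of all features.

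At 1000 µM the genes with a mean of at least 5 CPM that fell most were LRG1 (-1.61), a leucine-rich acute-phase glycoprotein, SERPINA6 (-1.44), the cortisol carrier, and CPN1 (-1.35), the catalytic chain of carboxypeptidase N. SERPINA6 stood at 311.2 ± 5.5 CPM in control, 198.6 ± 12.7 at 100 µM and 114.4 ± 21.7 at 1000 µM (SD, n = 3). SERPINA3, or alpha-1-antichymotrypsin, an acute-phase relative of SERPINA1, went the other way, from 182.6 ± 21.2 CPM in control to 431.3 ± 11.2 at 1000 µM (log2 fold change 1.24, adjusted p 4.99e-08, edgeR's quasi-likelihood test), after 121.3 ± 2.81 at 100 µM. ITIH3 (1.05) and ITIH2 (0.34), heavy chains of inter-alpha-trypsin inhibitor, also rose. ITIH1, another heavy chain, named after its values were seen, fell by 3.05 (adjusted p 4.6e-06, same test), from 1.03 ± 0.149 to 0.123 ± 0.086 CPM (SD, n = 3). All these calls at 1000 µM held with the set term.

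The largest falls at 100 µM in that list, again among genes with a mean of at least 5 CPM, were in SERPINA6 (-0.65), CPN1 (-0.64) and SERPINA3 (-0.59), and the largest rises in CPN2 (0.55), ORM2 (0.52) and SHBG (0.37). Only SERPINA6 and CPN2 among these 6 kept the call with the set term, and SHBG turned to -0.16. The CPN2 call was lost without control replicate 3 or 100 µM replicate 1 or 3, and that of SHBG without any 1 of 13 libraries and by DESeq2. The SHBG call was also lost without the filter, with the replicate block, without mitochondrial transcripts and with only the groups compared. Below that level, and named after their values were seen, HAMP (-1.89), the iron hormone hepcidin, and ITIH1 (-1.36) fell at 100 µM and PON1 (0.72) rose, of which HAMP alone kept the call with the set term (-2.48). At 5 CPM and above, SERPINA3 (1.83), ITIH3 (1.21) and the protease trap A2M (0.74) were higher at 1000 than at 100 µM, and LRG1 (-1.11), CPN2 (-1.08) and SAA4 (-0.85) lower.

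**Figure D4:**
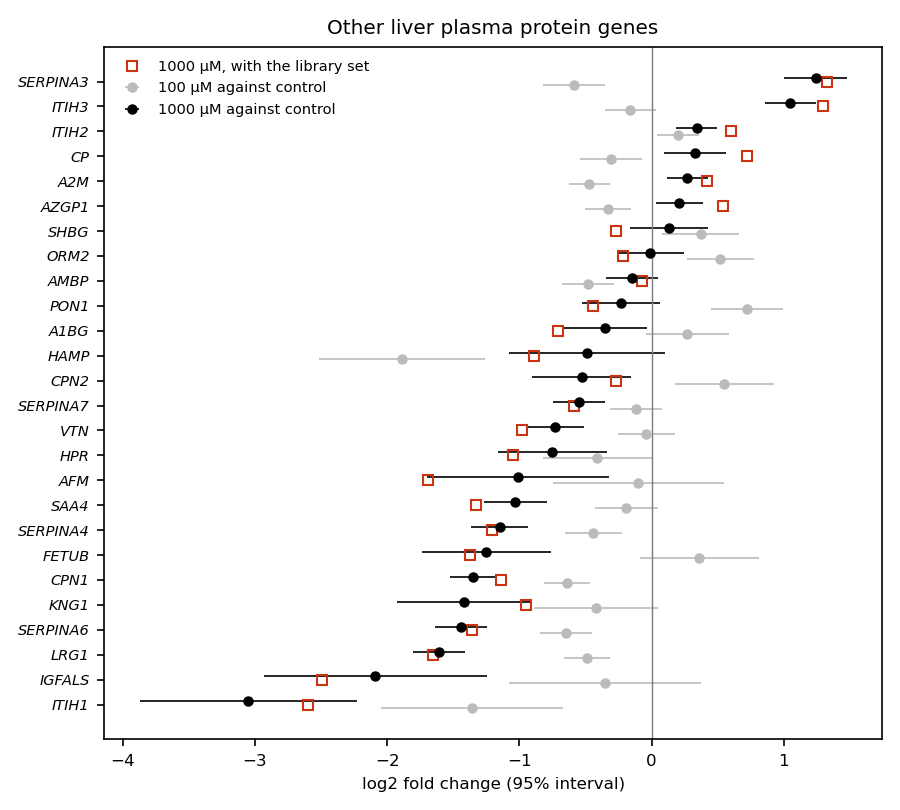
Log2 fold changes (linear axis) of the 26 other plasma protein genes tested, at 100 µM (grey) and 1000 µM (black) against control with 95% intervals, and at 1000 µM with the library set as a term (open squares, no interval). SERPINA3 and ITIH3 stand at 1.24 and 1.05 at 1000 µM, and LRG1 at -1.61.

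Transcription factors and cytokine signalling genes that act on plasma protein genes were called in both directions. Of 24 tested, 8 rose and 10 fell at 1000 µM by edgeR's quasi-likelihood test (median 0.10), and 6 rose and 5 fell at 100 µM (median 0.02). Under the set term 12 and 5 were called. At 1000 and 100 µM the called share was 75% and 45.8%, beside 57.6% and 46.6% of all features, and with the set term 50% and 20.8%, beside 38.0% and 17.3%, so that at 100 µM it was near the background. NR3C1, the glucocorticoid receptor, stood at 17.4 ± 2.61 CPM in control and 61.1 ± 2.22 CPM at 1000 µM (SD, n = 3) and rose by 1.81 on the log2 scale. CEBPB, an activator of acute-phase genes, went from 18.0 ± 0.188 to 59.6 ± 23.7 CPM (1.72). CEBPD, its relative, fell from 27.7 ± 1.12 to 8.43 ± 2.49 CPM (-1.72), and these 3 calls held with the set term.

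ZBTB20, a repressor of AFP, rose by 1.47 at 1000 µM (adjusted p 0.0269, edgeR's quasi-likelihood test), from 6.22 ± 3.17 to 17.1 ± 8.93 CPM (SD, n = 3), and lost the call with the set term (adjusted p 0.358). The call was also lost without control replicate 2 or 3, without 1000 µM replicate 1 or 2, without the filter and with only the groups compared. ZHX2, another repressor of AFP, named after its values were seen, fell by 0.76 at 1000 µM (adjusted p 5.65e-07, edgeR's quasi-likelihood test), from 63.0 ± 4.6 to 37.2 ± 1.81 CPM (SD, n = 3), and kept the call with the set term (-0.51, adjusted p 0.00841). TEF (-0.90) fell at 1000 µM and kept the call with the set term. CEBPA, which maintains the hepatocyte programme, rose against control at 100 µM (1.12) and at 1000 µM (0.43), and was lower at 1000 than at 100 µM (-0.68). Both rises kept the call with the set term (1.39 and 0.61). IL6ST, the shared subunit of interleukin-6 family receptors, fell at 100 µM (-0.81) and kept the call with the set term (-0.80). FOXA3 (0.36) and NR3C1 (0.52) rose and CEBPD (-1.41) and TEF (-0.44) fell at 100 µM, of which FOXA3 and NR3C1 lost the call with the set term. FOXA3 also lost it without control replicate 1 or 100 µM replicate 2. TEF lost its call without control replicate 1 or 2 or 100 µM replicate 1, and with only the groups compared. Between the 2 high doses ZBTB20 (1.37), CEBPB (1.33) and NR3C1 (1.30) were higher at 1000 µM and FOXA1 (-0.57) and CEBPA lower. That call of ZBTB20 was lost without any 1 of 15 libraries, without the filter, with the replicate block (adjusted p 0.0719) and with the set term.

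Genes that take up or handle the cargo of these carriers were also called in both directions. Of 17 listed 14 were tested, and 5 rose and 5 fell at 1000 µM by edgeR's quasi-likelihood test (median 0.02). At 100 µM 7 rose and 2 fell (median 0.25). The called share was 71.4% at 1000 µM and 64.3% at 100 µM, beside 57.6% and 46.6% of all features, and with the set term 35.7% and 21.4%, beside 38.0% and 17.3%, which is near the background. SLC40A1, the iron exporter ferroportin, rose by 1.81, TFRC, the transferrin receptor, by 0.57 and TFR2, the second transferrin receptor, by 0.53 at 1000 µM on the log2 scale. DIO1, which activates thyroxine, fell by 2.23, HMOX1, which breaks down haem, by 1.51 and FTL, the ferritin light chain, by 1.01. Under the set term 5 were called at 1000 µM and 3 at 100 µM, and among these 6 genes TFRC lost the call (adjusted p 0.221).

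At 100 µM SLC40A1 (0.63) and TFR2 (0.56) rose with the call kept under the set term. FCGRT, which returns albumin to the blood, rose (0.72) without the set term and stood at -0.02 with it, while HMOX1 (-0.46) and DIO1 (-0.42) fell and lost their calls with it. Between 1000 and 100 µM SLC40A1 (1.18) and LRP1 (0.59), a receptor for haem-hemopexin, were higher, and DIO1 (-1.81), HMOX1 (-1.05) and FTL (-1.01) lower.

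Genes for export of secreted proteins from the endoplasmic reticulum were called in both directions, with shares near or below those of all features. Of 20 tested, 5 rose and 8 fell at 1000 µM, and 2 rose and 5 fell at 100 µM, by edgeR's quasi-likelihood test, with 7 and 1 called under the set term. These were 65% and 35% of the list, beside 57.6% and 46.6% of all features, and 35% and 5% with the set term, beside 38.0% and 17.3%. CALR, a chaperone of glycoproteins, fell from 1719 ± 100.1 to 632.3 ± 91.4 CPM at 1000 µM (SD, n = 3; log2 fold change -1.44), and KDELR3, a retrieval receptor, fell by 0.98. SAR1B, a GTPase of the vesicle coat, rose by 1.41 and by 1.19 at 1000 and 100 µM, and these calls held with the set term. KDELR2 rose by 1.25 at 100 µM and 0.80 at 1000 µM, but with the set term stood at 0.23 and -0.14, neither called. EDEM1 (0.77) rose and SEC23B (-0.31) fell at 1000 µM, and SEC24A (-0.46), SEC23B (-0.36) and MCFD2 (-0.28) fell at 100 µM, all 5 values losing the call with the set term. Between 1000 and 100 µM MIA3 (0.60), EDEM1 (0.53) and SEC24B (0.37) were higher, and CALR (-1.39), KDELR3 (-1.05) and KDELR2 (-0.46) lower. The EDEM1 call there was lost without 100 µM replicate 1 or 3 or 1000 µM replicate 1 or 2. It was also lost without the filter and with only the groups compared. The KDELR2 call there was lost without the filter or without any 1 of 15 libraries.

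The genes whose log2 CPM over the 21 libraries was most like that of ALB, among 10856 candidates, were GLA (Pearson r 0.960), C12orf75 (0.960) and UGT2B10 (0.959). Those most like AFP were HSP90AA1 (0.982), USP18 (0.973) and ERP27 (0.972). These values describe 21 libraries that share dose groups and library sets.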

How the data were processed

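Per the labels' protocols, RNA was selected with poly(dT) beads before reverse transcription (SmartScribe). HISAT2, DESeq2 and the build GRCh38 are named in the submitters' processing notes; the counting tool, annotation release and use of strand are not given in the sources used here, so copies and overlapping genes have uncertain counts. The deposited values are raw counts per feature, as whole numbers, per the file headers and the values. A further 21 per-sample columns of the table were not used.

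Symbols were matched by identifier for 32264 of 37637 features. Features were filtered with filterByExpr, normalised by TMM and fitted in edgeR 4.0.16 under R 4.3.3 (quasi-likelihood F-test), in 1 fit over 21 libraries, with Benjamini-Hochberg adjustment over 17951 features and a threshold of 0.05. CPM used TMM-scaled totals. Standard errors were the absolute log2 fold change over the square root of F. Likeness used log2 CPM with a prior count of 2 and genes with a mean of at least 5 CPM. Coding lengths came from GENCODE 29. On counts simulated for 1000 µM against control over 17951 features, 41 of 100 genes changed 1.5-fold and 76 of 100 changed 2-fold were recovered, with 4 false calls among 17751. The simulated counts held no library sets, so these numbers do not cover calls that come from differences between sets.

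The genes, lists and tests were chosen with earlier results of these data known. Named from each list were called genes averaging at least 5 CPM, up to the 3 that rose most and the 3 that fell most in each of the 3 comparisons of the high doses. 1 gene that this rule names is not reported here. The library sets came from average-linkage clustering of mitochondrial mRNAs. Alternatives were DESeq2 1.42.0, DESeq2 size factors, no filter, the library set as a term, the replicate number as a block, only the groups compared, no mitochondrial transcripts, copies summed and each library left out. The fit within set B was added after seeing the data. Same-numbered libraries did not deviate together (mean correlation -0.216 to 0.188 over 21 pairs of groups, none with every value above 0.1). The labels name no molecular identifiers, so counts are reads and not molecules. P-values rest on the spread between cultures of 1 line. Without the set term, that spread also holds differences between library sets, because at some doses the replicates fell in different sets. P-values of that fit therefore do not measure the spread between cultures alone.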

Additional observations from a re-analysis of the deposited data

How the results depend on the processing

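Without the filter on low counts, 1 of the 10 genes was called at 10 µM, 4 export genes at 100 µM and 5 export genes between 1000 and 100 µM. With the library set as a term, 1 of the 10 was called at 0.01 µM, 0 at 10 µM and 5 at 100 µM; at 100 µM the lists gave 6 plasma protein genes, 5 regulators, 3 cargo-handling genes and 1 export gene, and at 1000 µM 5 cargo-handling and 7 export genes. With only the groups compared, 8 export genes were called at 1000 µM. The cause was not tested. Signs were checked for the 10 genes from 10 µM up, and for list genes only in the comparisons where the rule named them. With the set term they turned for TTR (0.35), TF (0.05) and ORM1 (0.21) at 10 µM, TF (0.13), ORM1 (0.50), RBP4 (-0.31), SHBG (-0.16) and FCGRT (-0.02) at 100 µM, and ORM1 (0.45) and KDELR2 (-0.14) at 1000 µM. Without a filter TF stood at 0.02 (10 µM) and 0.00 (100 µM), and with its copy summed ORM1 stood at 0.10 (100 µM). Leaving out 1 library turned signs at 10 µM within -0.16 to 0.13 for ALB, -0.03 to 0.01 for TF and -0.08 to 0.10 for AHSG, and at 100 µM within -0.02 to 0.07 for TTR, -0.12 to 0.01 for TF and -0.13 to 0.01 for HP. Leaving out 1 library gave, of the 10 genes, 0 at 0.01, 0.1 and 1 µM, then 0 to 3 (10 µM), 3 to 4 (100 µM) and 6 to 9 (1000 µM), with 7 to 8 between 1000 and 100 µM and 8 to 10 in the joint test. At 100 µM, 1000 µM and between them, plasma protein genes gave 12 to 16, 16 to 21 and 21 to 23, regulators 8 to 13, 14 to 18 and 12 to 19, cargo-handling genes 9 each time, 9 to 11 and 7 to 10, and export genes 5 to 9, 12 to 15 and 6 to 12. The AFP to ALB log2 ratio ran from -0.14 to -0.03 at 100 µM and from -0.49 to -0.39 at 1000 µM. The numbers do not pair the libraries. With the replicate block the 10 genes gave 0, 0, 0, 2, 3 and 8 calls at the 6 rising doses, 8 between 1000 and 100 µM and 9 in the joint test. The lists gave 14, 19 and 22, then 11, 17 and 14, then 9, 10 and 9, then 7, 13 and 9. The ratio stayed at -0.07 and -0.43 (exact sign-flip p 0.25 each, the smallest possible). Of the values of single genes under alternatives, 2892 kept direction and side of the threshold, 139 lost the call, 4 gained it and 25 changed sign.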
